A study of Homo sapiens with 8 samples.

Results

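The genes described here are those that carry a cell through G1, the growth phase before DNA replication, and into S phase: the D-type cyclins CCND1, CCND2 and CCND3, the E-type cyclins CCNE1 and CCNE2, the cyclin-dependent kinases CDK2, CDK4 and CDK6, the inhibitor CDKN1B (p27) and the retinoblastoma protein gene RB1. They were chosen by name, with earlier results of these data known but no measured value in the rule, which took in every probe set whose only symbol on the array's annotation is one of theirs. That gave 10 of the 19775 named genes, read by 26 of the 54613 probe sets tested. All samples were MDA-MB-231, a human triple-negative breast cancer line that carries mutant p53, plated for 2 days on a soft substrate (4 arrays) or on a stiff substrate (4 arrays). Both groups had the same medium, with serum, and no other agent or genetic change is named in the labels. Each substrate had 4 biological replicates lettered A to D, with 1 Affymetrix array per replicate; the stiffness of either substrate was not stated. The series title asks how mechanical cues act on mutant p53 through the mevalonate pathway and RhoA, and the comparison of soft with stiff is the only one the design holds.

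D-type cyclins are made in response to growth factors and adhesion, bind CDK4 or CDK6, and these kinases phosphorylate RB, which otherwise holds E2F transcription factors inactive. Freed E2F drives the genes for cyclin E, for E2F itself and for much of the DNA replication machinery, and cyclin E with CDK2 then phosphorylates RB further. p27 blocks cyclin E-CDK2 until it is tagged for destruction by the SCF ligase that contains SKP2. Much of this control acts on proteins, by phosphorylation and turnover, and an array that measures RNA does not see it.

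Pearson correlations between arrays ran from 0.9932 to 0.9982. The first principal component (40.4% of the variance) separated soft from stiff arrays, with soft A farthest out, and the second (16.4%) set the stiff arrays A and B (the A-B pair) apart from the stiff arrays C and D (the C-D pair). Differences against each pair are therefore given beside many of the results below. All 6 markers of the line, among them vimentin (VIM) at a mean of 14.6 on soft arrays, were above the background level of 6.75, which was set from genes taken as silent in these cells. AXL was lower on soft, at -0.23 (limma adjusted p = 0.0318), and the 5 other line markers were not called. Of the 9 markers of luminal breast cells, ESR1, PGR, FOXA1 and CDH1 were under background in both groups. GATA3, EPCAM, KRT8, KRT18 and KRT19 were above it, and the keratin KRT19 was higher on soft by 0.35 (adjusted p = 0.0106). All 3 measured leukocyte markers and 4 of 5 fibroblast markers were under background. Per array, the mean of the luminal list lay at 8.08 to 8.15 on soft and 8.07 to 8.12 on stiff, that of the fibroblast list at 5.37 to 5.57 on soft and 5.39 to 5.55 on stiff, and that of the leukocyte list at 5.04 to 5.31 on soft and 4.92 to 5.24 on stiff. Of the 4 endothelial markers only PECAM1 was above background, and it was higher on soft (8.01 against 7.52). The part of AXL, KRT19 and PECAM1 in the results below was not tested.

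Upstream sequence was at hand for 6 of the 10 genes, in 9 windows of 250 bases before an annotated start (RefSeq, GRCh38.p14). No window was used for CCND1, CCND2, CCNE2 and CDK2. The only RB1 window, chr13:48476200-48476449, lies at a start far inside the gene (48303751-48481890, plus strand). Every CCND3 window also lies inside its gene (chr6:41934933-42050035, minus strand). For both genes, sequence before the outermost start was not searched. Both letter forms of the E2F site searched, TTTGGCGC (present in 0.55% of 35116 promoters of this length, either strand) and TTTCCCGC (1.39%), were found in 0 of the 9 windows, as was the cAMP response element TGACGTCA (1.65% of promoters). The GC box GGGCGG was in 6 of 9 windows (42.6% of promoters) and the E-box CACGTG in 1 of 9 (6.34%). Of the 9 windows 3 are printed 5′ to 3′ in the gene's direction because they belong to the cyclin E gene that sat just outside the threshold (CCNE1), to the kinase with probe sets that rose (CDK6) and to its close relative with none (CDK4). Capitals mark GC boxes on either strand (GGGCGG or CCGCCC) and E-boxes (CACGTG).
CCNE1, chr19:29811741-29811990, plus strand: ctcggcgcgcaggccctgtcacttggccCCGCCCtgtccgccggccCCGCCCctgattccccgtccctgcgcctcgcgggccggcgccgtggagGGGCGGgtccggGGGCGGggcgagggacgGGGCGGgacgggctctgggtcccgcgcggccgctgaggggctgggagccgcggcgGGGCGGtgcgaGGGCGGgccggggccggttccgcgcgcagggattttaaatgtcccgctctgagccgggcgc
CDK6, chr7:92836574-92836823, minus strand: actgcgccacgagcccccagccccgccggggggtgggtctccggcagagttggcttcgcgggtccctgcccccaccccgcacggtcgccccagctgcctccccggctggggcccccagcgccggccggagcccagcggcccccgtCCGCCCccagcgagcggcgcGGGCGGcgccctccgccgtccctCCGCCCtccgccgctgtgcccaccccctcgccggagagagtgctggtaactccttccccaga
CDK4, chr12:57752311-57752560, minus strand: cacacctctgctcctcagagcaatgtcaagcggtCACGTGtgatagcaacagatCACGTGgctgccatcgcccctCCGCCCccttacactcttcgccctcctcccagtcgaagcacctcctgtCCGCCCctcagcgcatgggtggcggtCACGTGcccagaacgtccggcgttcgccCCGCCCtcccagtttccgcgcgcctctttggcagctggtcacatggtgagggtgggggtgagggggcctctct
The CCNE1 window held 7 GC boxes, the CDK6 window printed 3, and that of CDK4 3 GC boxes and 3 E-boxes. CDK6 has another window, at chr7:92833960-92834209, with 0 matches to any of the motifs. These are matches of letters and say nothing about binding in these cells.

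Cells on the soft substrate had less mRNA for cyclin E2 and for its kinase partner CDK2. At their brightest probe sets CCNE1 sat just outside the threshold, and no D-type cyclin, CDK4, CDK6, CDKN1B or RB1 passed it. Some other probe sets were higher on soft: CDK6 224851_at (limma adjusted p = 0.00215) and 224848_at (0.0251), and CCND1 208711_s_at (0.0465). In alternative settings CDK6 224851_at was called in 19 of 19, CCNE2 205034_at in 16 of 19 and CDK2 204252_at in 10 of 19. At each gene's brightest probe set, 2 of the 10 genes passed the threshold (limma, adjusted p under 0.05 over all probe sets), which compares with 10.3% of all genes. Both were lower on soft, CCNE2 and CDK2, against 5.93% of all genes. No member passed as higher by limma at its brightest probe set, against 4.39% of all genes. There, 1 (CCND2) was higher at an unadjusted p under 0.05. Soft and stiff arrays were fully apart for 3 members, CCNE2, CDK2 and CCNE1, all of them lower on soft, compared with 19.9% of all genes. Over the 10 members the median difference, soft minus stiff, was -0.09 on the log2 scale, with 8 below 0 and 2 above, against a median of 0.0075 over all genes. The members' median difference in size was 0.14, against 0.095 for all genes. At these probe sets all 10 members were above background in at least 1 group. CCND2 was so on soft only (mean 6.92, against 6.43 on stiff). The shares and medians over all genes include genes under background. Of the 2040 genes called, 1850 were above background. With probe sets above background alone, 3 of the 10 members passed, all lower on soft. In that fit 3265 of 10281 genes were called, 1914 of them lower. RNA came from whole cultures, so fewer cells in a phase of the cycle and less RNA per cell cannot be told apart in any of these values.

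**Figure D1:**
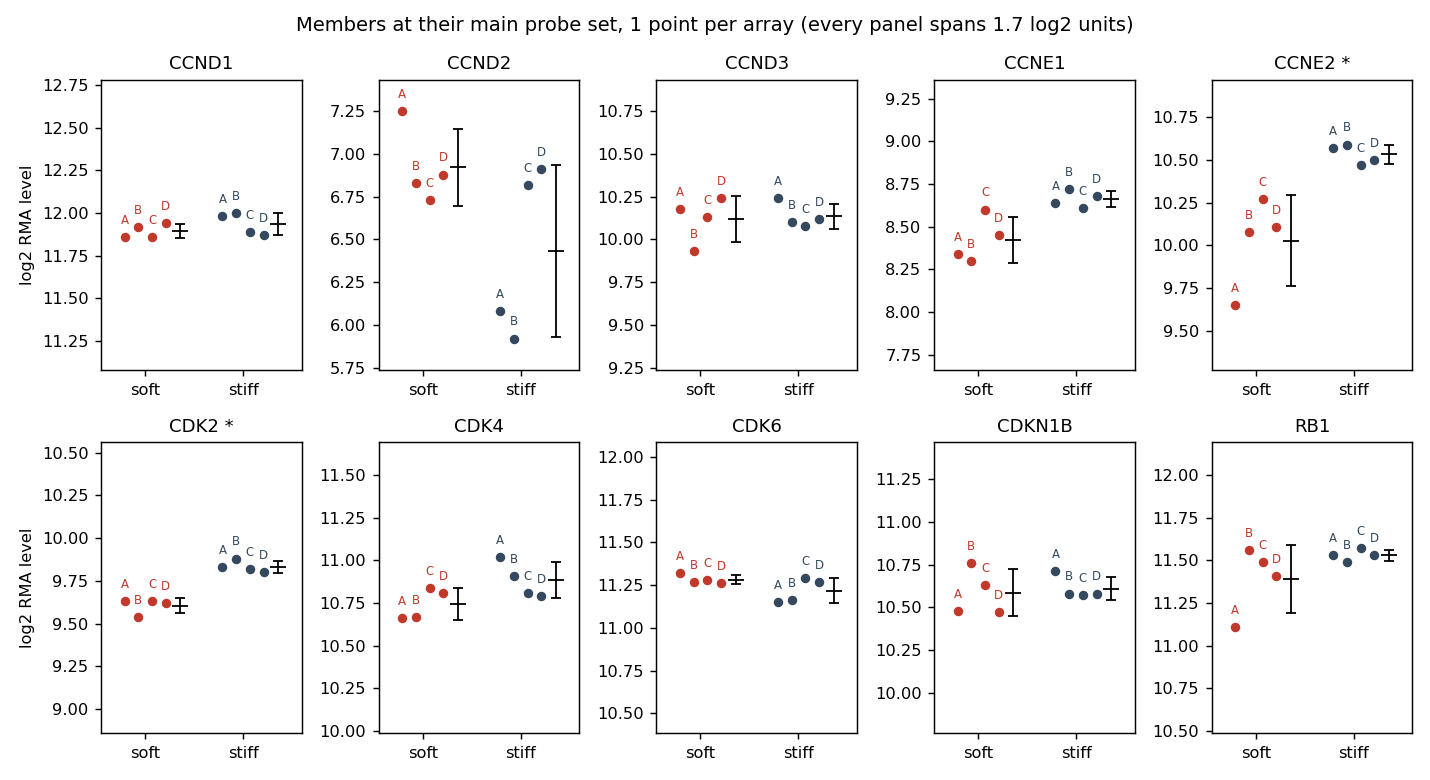
Log2 RMA level of each member at its brightest probe set, 1 point per array (letters A to D), soft left of stiff, with the mean and SD of 4 arrays beside each group; every panel spans the same height and an asterisk marks adjusted p under 0.05. The soft arrays of CCNE2, CDK2 and CCNE1 all lie under their stiff arrays, and the stiff arrays of CCND2 split into A and B below C and D.

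CCNE2, an E-type cyclin and an E2F target, fell by more than any other called member. At its brightest probe set, 205034_at, it had 9.65, 10.08, 10.27 and 10.11 on soft A to D, against 10.57, 10.59, 10.47 and 10.5 on stiff A to D. All 4 soft arrays were under all 4 stiff arrays, and soft A lay lowest. The means were 10.03 ± 0.265 on soft and 10.53 ± 0.0568 on stiff (SD, n = 4 each), a difference of -0.505 (SE 0.113, limma adjusted p = 0.0185), or a soft level 0.705 times the stiff one. Its other probe set, 211814_s_at, went the same way, with 7.2, 7.52, 7.99 and 7.58 on soft and 8.12, 8.33, 8.12 and 8.11 on stiff. The groups did not overlap there either, and the difference was -0.6 (SE 0.136, adjusted p = 0.0204). The gap between the 2 probe sets differed between substrates by -0.0925 (exact permutation test, two-sided, p = 0.286). Without soft A the difference at the brightest probe set was -0.38 and still past the threshold, without stiff B it was -0.49 (adjusted p = 0.0564), and without stiff B at 211814_s_at -0.54 (0.0637), or without soft B -0.58 (0.0553).

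CCNE1, the other E-type cyclin, did not pass the threshold. It had 8.34, 8.3, 8.6 and 8.45 on soft against 8.64, 8.72, 8.61 and 8.68 on stiff. The groups just failed to overlap, since soft C came within 1 rounding step of stiff C. The difference was -0.24 (SE 0.0746, adjusted p = 0.071, 95% confidence interval -0.4 to -0.08). Leaving out soft C, the soft array nearest to stiff, must widen the difference, which was then -0.3 (adjusted p = 0.0242). Without any other single array CCNE1 did not pass (limma adjusted p 0.104 to 0.171). The second probe set, 242105_at, was under background with a difference of 0.07 (adjusted p = 0.713). CCNE2 lay lower relative to CCNE1 on soft than on stiff by 0.265 (exact permutation p = 0.0286, the smallest that 4 arrays against 4 can give, adjusted p = 0.0531 over 13 such pairs of probe sets).

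CDK2, the kinase partner of cyclin E, fell by a small and even amount. At 204252_at it had 9.63, 9.54, 9.63 and 9.62 on soft, against 9.83, 9.88, 9.82 and 9.8 on stiff. Both groups were tight and stood apart, with soft B lowest. The means were 9.61 ± 0.0436 on soft and 9.83 ± 0.034 on stiff (SD, n = 4 each), and the difference was -0.23 (SE 0.0569, adjusted p = 0.0304), a soft level 0.854 times the stiff one. Its second probe set above background, 211804_s_at, had 7.12, 7.31, 7.36 and 7.06 on soft against 7.44, 7.64, 7.66 and 7.38 on stiff. These arrays did not overlap, and the difference of -0.32 (SE 0.0913, adjusted p = 0.0529) missed the threshold narrowly. The remaining one, 211803_at, was under background, at -0.145 (adjusted p = 0.259). The CDK2 call at 204252_at did not survive most losses of 1 array: the adjusted p was 0.0751 without soft B, 0.0638 without soft D, and 0.066, 0.0914, 0.0645 and 0.0623 without stiff A, B, C and D in turn, while the difference stayed between -0.24 and -0.21 in these fits.

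CCND1, a D-type cyclin induced by growth factor and adhesion signals and often overexpressed in breast cancer, was read differently by its 2 probe sets. The brightest, 208712_at, had 11.86, 11.92, 11.86 and 11.94 on soft and 11.98, 12, 11.89 and 11.87 on stiff. Soft and stiff overlapped, and the difference of -0.04 (SE 0.0601, adjusted p = 0.758) had a 95% interval of -0.17 to 0.09. At the other, 208711_s_at, soft arrays read 11.21, 11.08, 11.34 and 11.37, against 11.02, 11.04, 10.85 and 10.96 on stiff. Here every soft array was above every stiff one, and the difference of 0.28 (SE 0.0786, adjusted p = 0.0465) just passed. The gap between the 2 probe sets differed between substrates by 0.32 (exact permutation p = 0.0286, adjusted p = 0.0531). The call at 208711_s_at was kept without soft B (0.0282) and lost without any other single array (adjusted p 0.0725 to 0.123). With the replicate letter as a block its adjusted p was 0.0979. Against the A-B stiff pair it differed by 0.22 and against the C-D pair by 0.345. Identifiers ending in _s_at, here and for CCND2, CCNE2, CDK2, CDK4 and RB1, carry the manufacturer's mark for probes shared between transcripts. Which transcripts they read is therefore less certain.

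CCND2, another D-type cyclin, was close to background even at its brightest probe set. At 200953_s_at it had 7.25, 6.83, 6.73 and 6.88 on soft, against 6.08, 5.92, 6.82 and 6.91 on stiff. Stiff C and D lay among the soft arrays, and stiff A and B were well below them. The difference was 0.49 (SE 0.21, unadjusted p = 0.0393, adjusted p = 0.188), with a 95% interval of 0.03 to 0.95. Set against the A-B stiff pair it was 0.92 (adjusted p = 0.00968), and against the C-D pair 0.06 (0.864). The 3 other CCND2 probe sets, 200951_s_at, 231259_s_at and 200952_s_at, were under background, with differences of 0.05, 0.03 and 0.15 (adjusted p 0.275 to 0.935).

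CCND3, the remaining D-type cyclin, had 10.18, 9.93, 10.13 and 10.24 on soft and 10.24, 10.1, 10.08 and 10.12 on stiff at 201700_at. The groups overlapped fully, and the difference of -0.02 (SE 0.0771, adjusted p = 0.937) had a 95% interval of -0.18 to 0.15. Its second probe set, 1562028_at, was under background (0.18, adjusted p = 0.142). Against the D-type cyclins, CCNE2 was relatively lower on soft by 0.465 (CCND1) and by 0.49 (CCND3), each with an exact permutation p of 0.0286 and an adjusted p of 0.0531. CCNE1 was so by 0.2 relative to CCND1 (p = 0.114, exact permutation test) and by 0.225 relative to CCND3 (p = 0.0571).

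CDK6, one of the kinases that the D-type cyclins activate, did not pass at its brightest probe set but rose at both others above background. At 224847_at it had 11.32, 11.27, 11.28 and 11.26 on soft, against 11.15, 11.16, 11.29 and 11.27 on stiff. The difference there was 0.065 (SE 0.0602, adjusted p = 0.585, 95% interval -0.07 to 0.2), since stiff C and D sat among the soft arrays, and it was 0.13 against the A-B pair and 0.0025 against the C-D pair. At 224851_at it had 10.81, 10.8, 10.75 and 10.77 on soft, against 10.37, 10.35, 10.37 and 10.45 on stiff. These groups were far apart for their spread: the means were 10.78 ± 0.0275 on soft and 10.39 ± 0.0443 on stiff (SD, n = 4 each), and the difference of 0.4 (SE 0.0565, adjusted p = 0.00215) is 1.32-fold. It had the smallest adjusted p of all 26 probe sets and was past the threshold in 19 of 19 alternative settings, with adjusted p = 0.015 against the A-B stiff pair and 0.0284 against the C-D pair. At 224848_at it had 10.52, 10.3, 10.38 and 10.31 on soft, against 9.96, 10.06, 10.16 and 10.12 on stiff. Soft lay above stiff throughout, by 0.3 (SE 0.0723, adjusted p = 0.0251), and the call was lost without soft A (0.058), stiff A (0.0677) or stiff B (0.0686), and with the replicate letter as a block (0.0634). It was 0.37 against the A-B pair and 0.24 against the C-D pair.

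The 3 bright CDK6 probe sets thus read unequal differences. Relative to 224847_at, 224851_at was higher on soft by 0.33 and 224848_at by 0.24 (exact permutation p = 0.0286 and adjusted p = 0.0531 for both), while 224848_at relative to 224851_at was at -0.095 (p = 0.2, exact permutation test). The other 4 CDK6 probe sets, 243000_at, 231198_at, 235287_at and 207143_at, were under background, with differences from -0.23 to 0.31 and none past the threshold. Which CDK6 transcripts each probe set reads is not annotated in the sources used here. Taken as the mean of all its probe sets, CDK6 differed by 0.14 (adjusted p = 0.0892), CCNE2 by -0.55 (0.0155) and CDK2 by -0.23 (0.0266).

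**Figure D2:**
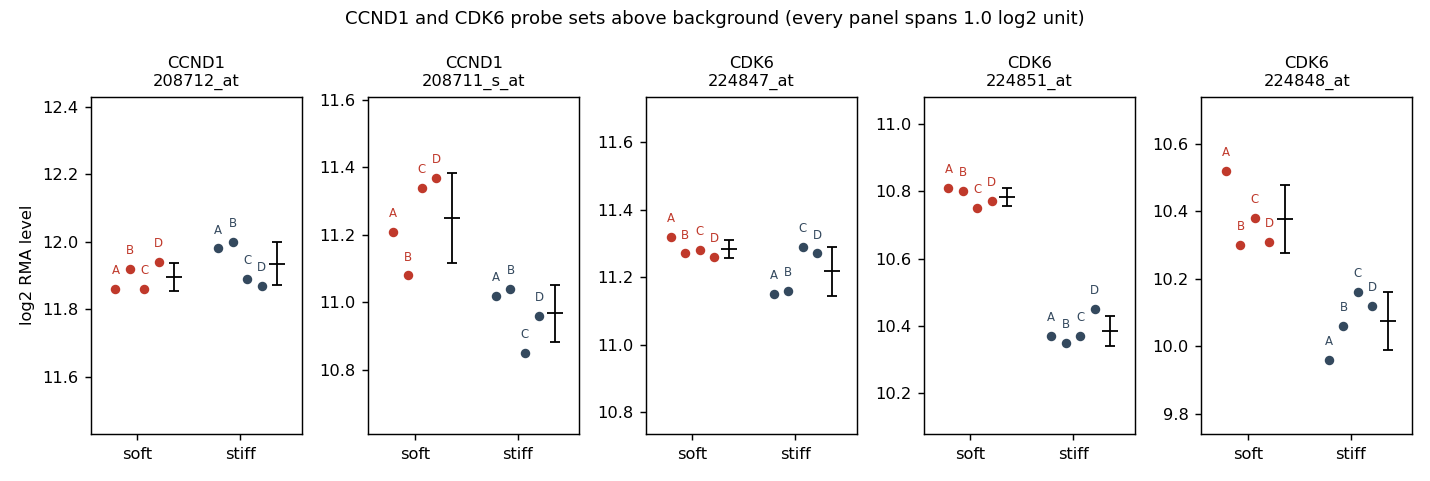
Log2 RMA level at the CCND1 and CDK6 probe sets above background, 1 point per array, soft left of stiff, with mean and SD of 4 arrays; every panel spans 1 log2 unit. CCND1 208711_s_at, CDK6 224851_at and CDK6 224848_at have every soft array above every stiff array, while at the brightest probe set of each gene, CCND1 208712_at and CDK6 224847_at, the groups overlap.

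CDK4, the close relative of CDK6, had 10.66, 10.67, 10.84 and 10.81 on soft, against 11.02, 10.91, 10.81 and 10.79 on stiff, at its single probe set 202246_s_at. Soft C and D overlapped with stiff C and D, and the difference was -0.14 (SE 0.0741, adjusted p = 0.306, 95% interval -0.3 to 0.03). It was -0.22 against the A-B stiff pair (adjusted p = 0.213) and -0.055 against the C-D pair (0.779). CDK2 differed by -0.09 more than CDK4 (exact permutation p = 0.257), and relative to CDK6 at 224847_at it was lower on soft by 0.29 (p = 0.0286, exact permutation test, adjusted p = 0.0531).

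CDKN1B, which encodes p27, had 10.48, 10.76, 10.63 and 10.47 on soft and 10.71, 10.58, 10.57 and 10.58 on stiff at its only probe set, 209112_at. Soft arrays lay on both sides of the stiff ones, and the difference of -0.025 (SE 0.0773, adjusted p = 0.891) had a 95% interval of -0.19 to 0.14. This bears on p27 mRNA only, since p27 protein is set largely by turnover.

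RB1 had 11.11, 11.56, 11.49 and 11.41 on soft, against 11.53, 11.49, 11.57 and 11.53 on stiff, at 203132_at. Soft A alone was well below the other arrays, and soft B was above 3 of the stiff ones. The difference was -0.14 (SE 0.0908, adjusted p = 0.417, 95% interval -0.34 to 0.06), and without soft A it was -0.04 (adjusted p = 0.767). Its other probe set, 211540_s_at, was under background, at -0.115 (adjusted p = 0.448).

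Counted over probe sets, 6 of the members' 26 passed the threshold, compared with 9.27% of all probe sets tested. Of these, 3 were higher on soft (CDK6 224851_at and 224848_at, CCND1 208711_s_at) and 3 lower (CCNE2 at both, CDK2 204252_at), so 4 of the 10 genes had at least 1 called probe set. The groups did not overlap at 8 of 26, compared with 16.6% of all probe sets. All 6 called probe sets were among the 15 above background, and none among the 11 under it. Called genes in general were mostly above background (1850 of 2040). The shares of all probe sets given here include those under background. The share called among probe sets above it was not counted, so the split is not a trait of the members.

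**Figure D3:**
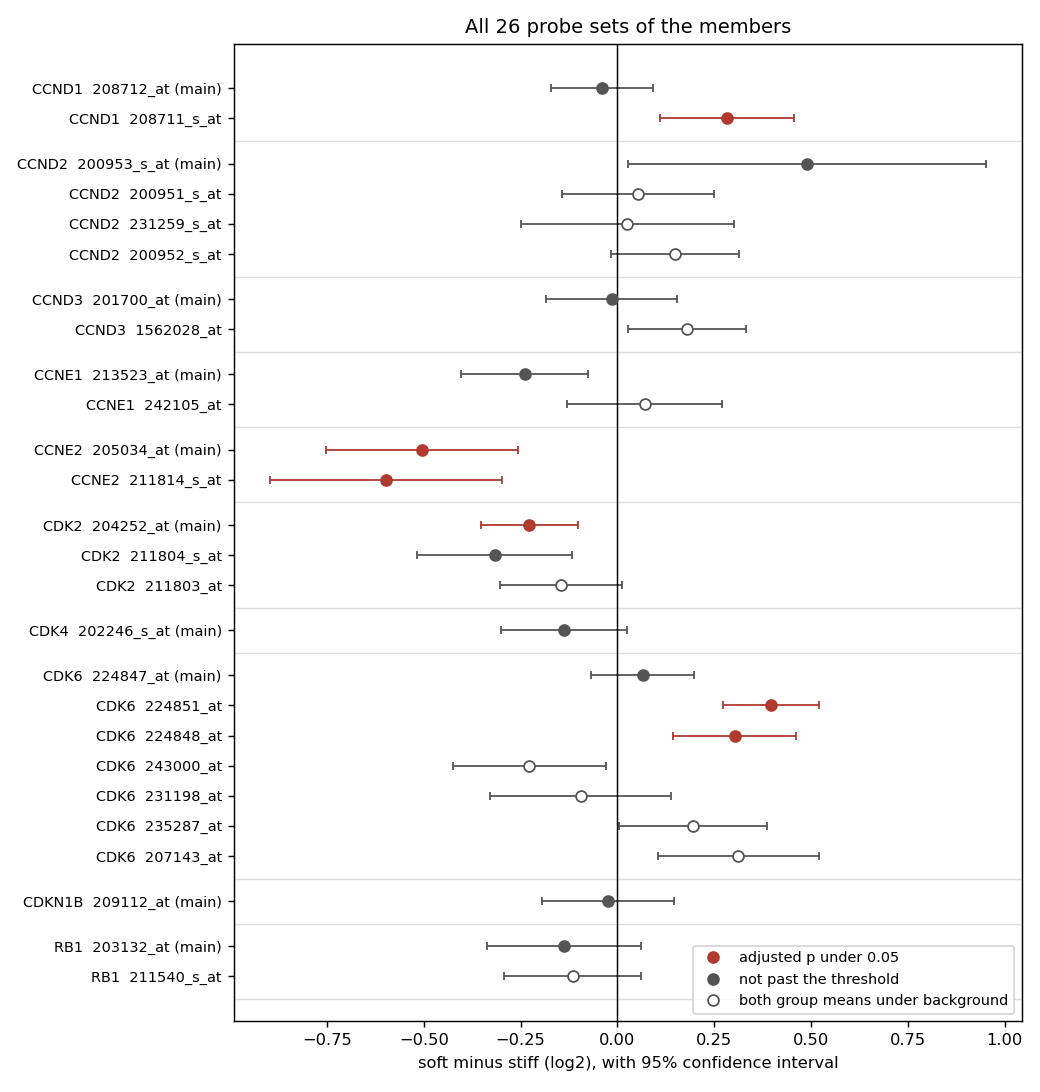
Difference, soft minus stiff, with its 95% confidence interval on the log2 scale for all 26 probe sets of the 10 genes; red points have adjusted p under 0.05 and open points have both group means under background. Both CCNE2 probe sets and CDK2 204252_at lie left of 0, and CDK6 224851_at and 224848_at and CCND1 208711_s_at lie right of it.

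The split among the stiff arrays touched the members unequally. CCNE2 differed by -0.55 against the A-B pair and by -0.46 against the C-D pair, CCNE1 by -0.26 and -0.22, and CDK2 by -0.25 and -0.2, so for these genes the choice of stiff pair moved the size little. With only 2 stiff arrays none of the 3 passed the threshold against either pair (adjusted p 0.0777 to 0.252). For CCND2 nearly all of the difference came against the A-B pair.

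**Figure D4:**
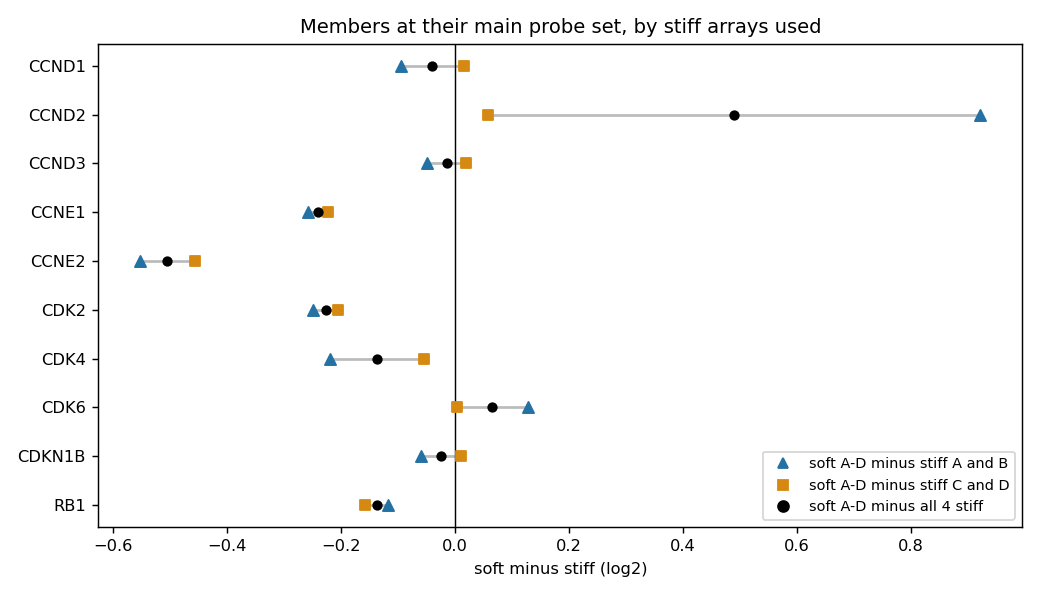
Difference, soft minus stiff, on the log2 scale for each member at its brightest probe set, with the 4 soft arrays set against the A-B stiff pair (triangles), the C-D stiff pair (squares) or all 4 stiff arrays (circles). CCNE1, CCNE2 and CDK2 keep their size across the pairs, while CCND2 runs from 0.06 to 0.92.

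In the other lists of the pathway, counts stand against 5.93% of all genes lower on soft and 4.39% higher. Both shares include genes under background, while most genes of the lists were above it. With probe sets above background alone, 1914 of 10281 genes were called lower and 1351 higher. The lists were not counted in that fit. Among the pocket proteins, E2F factors and their DP partners, 3 of 12 genes fell on soft and none rose, while 9 did not pass, with a list median of -0.17. In this list, and in each list below where limma called none higher, none was higher at an unadjusted p under 0.05 either. E2F8, a repressor E2F that is itself switched on in S phase, had 9.09, 9.51, 9.75 and 9.48 on soft, against 10.14, 10.22, 9.94 and 10.07 on stiff. No soft array reached a stiff one, and the difference was -0.635 (SE 0.122, adjusted p = 0.0093). E2F5, which works with the RB relatives, fell by 0.37 (adjusted p = 0.0231), and E2F3, an activator that RB binds, by 0.26 (adjusted p = 0.0307). Against the A-B stiff pair 1 of the 12 passed (E2F8), without soft A 2 (E2F8 and E2F5), and against the C-D pair 0 by limma, with 5 lower there at an unadjusted p under 0.05. In these fits 2.66%, 3.58% and 1.96% of all genes were called lower.

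The CDK inhibitors other than p27 held 1 gene that rose among 6 measured. CDKN1A (p21), an inhibitor of cyclin-CDK2 and a classic target of wild-type p53, had 10.13, 10.06, 9.87 and 9.93 on soft, against 9.45, 9.31, 9.5 and 9.51 on stiff. Every soft array was above every stiff one. The means were 10 ± 0.119 on soft and 9.44 ± 0.0922 on stiff (SD, n = 4 each), a difference of 0.555 (SE 0.0766, adjusted p = 0.00184), or 1.47-fold. It held against the A-B stiff pair (adjusted p = 0.0113), the C-D pair (0.0248) and without soft A (0.00552). CDKN1C did not pass, at 0.175 (limma adjusted p = 0.138, unadjusted p = 0.0238), though its soft arrays were all above its stiff ones. CDKN2A and CDKN2B were under background. Of the 6 differences 2 were below 0, and the list median was 0.0225.

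Of the CDK-activating kinase, the CDC25 phosphatases and the WEE kinases that together set the phosphorylation of CDKs, 1 of 8 changed, near the share of all genes called (10.3%), and the median was -0.13. CDC25A, the phosphatase that activates CDK2 at the entry to S phase and an E2F target, had 9.09, 9.04, 9.15 and 9.12 on soft, against 9.53, 9.64, 9.57 and 9.65 on stiff. The groups were tight and far apart, at a difference of -0.4975 (SE 0.0597, adjusted p = 0.000926), a soft level 0.708 times that on stiff. It held against either stiff pair (adjusted p = 0.0123 and 0.0106) and without soft A (0.00334). CDC25C did not pass over all arrays (-0.325, limma adjusted p = 0.0563). It passed against the A-B pair (-0.48, 0.0249) and not against the C-D pair (-0.17, 0.354).

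Among 14 genes for SCF ligases and other turnover of these proteins, 3 fell on soft and none rose, with a median of -0.06. SKP2, the receptor that recognises phosphorylated p27, had 9.93, 10.13, 10.31 and 10.18 on soft, against 10.79, 10.84, 10.39 and 10.45 on stiff. The groups did not overlap, but the A-B stiff pair was well above the C-D pair. Its difference was -0.48 (SE 0.115, adjusted p = 0.0255) over all arrays, -0.68 against the A-B pair (0.0116), -0.28 against the C-D pair (0.183) and -0.41 without soft A (0.0704). CKS1B, the cofactor SKP2 needs for p27, fell by 0.25 (adjusted p = 0.0192), and its close relative CKS2 by 0.26 (adjusted p = 0.0366). Of the 14, 1 passed against the A-B pair (SKP2), 1 without soft A (CKS1B) and 0 against the C-D pair by limma, with 3 lower there at an unadjusted p under 0.05.

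S phase genes transcribed with E2F make the DNA replication machinery and its precursors. Of 18 measured, 6 fell on soft, none rose and 12 did not pass, all 18 differences were below 0 and the median was -0.24. CDT1, which licenses replication origins, had 8.69, 8.86, 8.97 and 9.03 on soft, against 9.43, 9.54, 9.46 and 9.47 on stiff. The groups stood apart by -0.5875 (SE 0.0782, adjusted p = 0.00157). CCNA2, the S and G2 cyclin that takes over CDK2, fell by 0.41 (adjusted p = 0.0171) and CDC6, which loads the replicative helicase with CDT1, by 0.38 (adjusted p = 0.014). UNG, which removes uracil from DNA, fell as much as CDC6 (adjusted p = 0.03), and the 2 other called genes were RRM1 and TK1. Among the 18, 3 passed against the A-B stiff pair (CDT1, TK1 and POLA1), 1 against the C-D pair (CDT1) and 4 without soft A (CCNA2, CDC6, CDT1 and RRM1).

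The S, G2 and M cyclins of the A and B types drive replication and mitosis with CDK2 and CDK1. Of these, CCNF and CDK1, 7 genes in all, 5 fell on soft and none rose, with a median of -0.335. CCNB3 was under background in both groups. CCNF, the substrate receptor of another SCF ligase, had 8.12, 8.23, 8.53 and 8.49 on soft, against 8.99, 8.8, 8.65 and 8.74 on stiff. The groups did not overlap, and the difference was -0.45 (SE 0.105, adjusted p = 0.0219). CCNA2, counted in this list too, has its values above, and CCNB1, the mitotic partner of CDK1, fell by 0.335 (adjusted p = 0.0278). CCNB2 and CDK1 were the 2 others. Of these 5, CCNF and CCNB2 passed against the A-B stiff pair, CCNA2 without soft A, and none against the C-D pair by limma (adjusted p 0.133 to 0.289). CCNA1, a cyclin known from the germ line, did not pass over all arrays (-0.39, adjusted p = 0.119). It was at -0.10 against the A-B pair (0.654) and -0.68 against the C-D pair (0.00949).

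The cyclins and CDKs outside the cell cycle engine, many of them parts of the transcription machinery, were mixed. Of 22 measured, 3 were higher on soft (CCNI at 0.26, adjusted p = 0.0429, CCNL2 at 0.255, 0.0256, and CCNG2 at 0.23, 0.0472), 1 was lower (CDK10 at -0.25, 0.029) and 18 did not pass, with a median of -0.09. None of these 4 passed without soft A (adjusted p 0.0542 to 0.1) or against either stiff pair alone (adjusted p 0.0896 to 0.24), though CCNG1 of this list, at -0.06 over all arrays (adjusted p = 0.862), was at -0.38 against the A-B pair (0.0366) and 0.26 against the C-D pair (0.121). The last list held parts of the DREAM complex, which represses cell cycle genes together with RB relatives, and also B-MYB (MYBL2) and FOXM1. In it 1 of 7 was lower, LIN52 at -0.385 (SE 0.0757, adjusted p = 0.0106), with a list median of -0.22. The call on LIN52 was kept without soft A (0.0192) and lost against the A-B stiff pair (0.076) or the C-D pair (0.068).

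**Figure D5:**
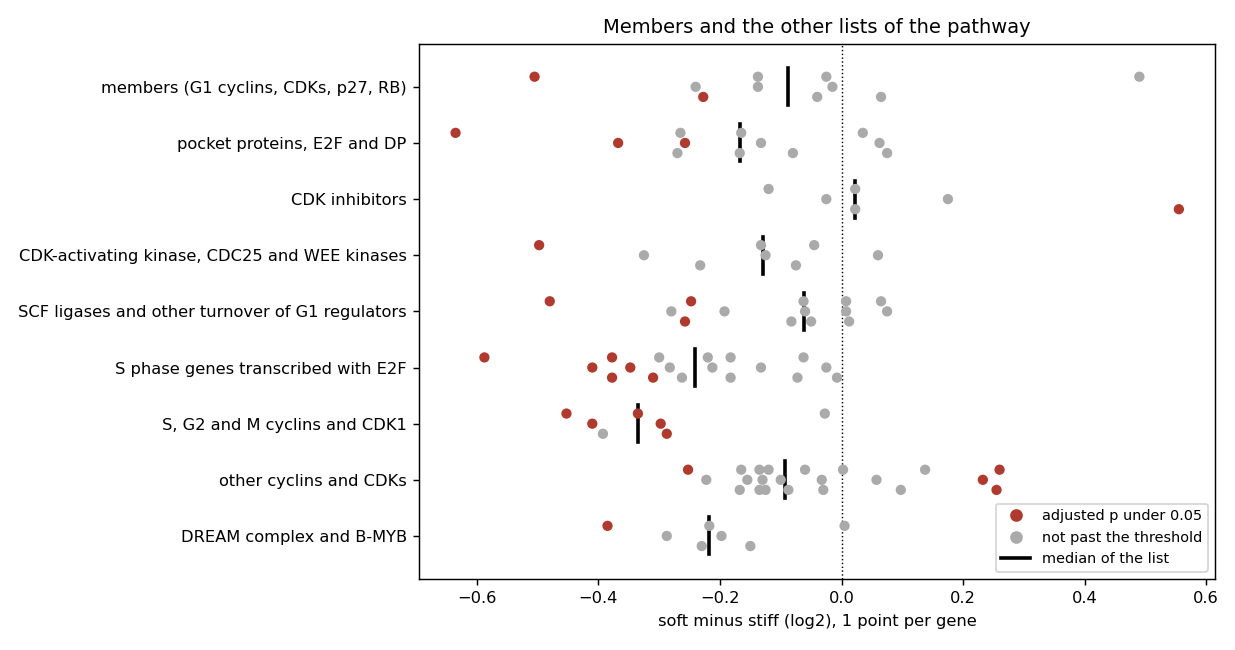
Difference, soft minus stiff, on the log2 scale, 1 point per gene at its brightest probe set, for the 10 members and 8 other lists of the pathway, with the median of each list as a bar and genes with adjusted p under 0.05 in red. All 18 S phase genes lie left of 0, and CDKN1A lies at the far right of the CDK inhibitors.

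As a description of pattern, the genes most like each called member were sought from their deviations from their own substrate's mean over the 8 arrays. For CCNE2 they were NSMAF (Pearson r = 0.993) and TRIM59 (r = 0.991), which differed between substrates by -0.28 (adjusted p = 0.031) and -0.41 (adjusted p = 0.0366). For CDK2 they were TSPAN5 (r = 0.992), at -0.06 (adjusted p = 0.728), and KIAA0586 (r = 0.982), at -0.17 (adjusted p = 0.18). The 8 points share arrays and scaling, the highest values among all genes above background were taken, and soft A carries most of the deviation in CCNE2, so they are a description only.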

How the data were processed

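The authors deposited RMA values on the log2 scale for each probe set on each array, with 2 decimals. The method is RMA per the submitters' processing notes; the log2 scale follows from the range of the values. Its software and version are not given in the sources used here, and scanner files were not used here. RMA gives all arrays a like distribution, so a change shared by all genes cannot be seen, and dim probe sets show smaller differences. Of 54675 probe sets, 62 manufacturer's controls were left out. By the platform annotation, with symbols brought up to date through gene identifiers in RefSeq, 41091 probe sets have 1 symbol, 1801 have several and 11721 have none.

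Soft and stiff were compared over all 8 arrays with limma 3.58.1 in R 4.3.3 (lmFit, eBayes, two-sided), adjusted by Benjamini-Hochberg for all 54613 probe sets, at a threshold of 0.05 and dim probe sets kept. All differences are log2 values, soft minus stiff. A gene's brightest probe set, by mean over the 8 arrays, stands for the gene. Of 20 genes taken as silent, 17 were measured, and the 95th percentile of their means gave the background level of 6.75. The number of arrays limits the precision. Replicates are labelled biological, with nothing on separate cultures, and p-values cover only the spread between these 8 arrays. Levels of different probe sets are not compared.

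The members and the gene lists were chosen with earlier results of these data known. All members are named with every probe set. Of each other list up to 3 genes per direction with the largest differences past the threshold are named, and further genes only where they are few or a stiff pair changes their call, chosen after their values were seen. The 13 exact permutation tests of pairs of probe sets were also chosen after the values were seen. Arrays with the same letter did not deviate together (correlations of 0.122, -0.118, 0.0516 and -0.0447 for A to D), so the letters were not taken as pairs. CDKN2C and CDK11B were not analysed here. The procedure was tested on simulated data. Alternatives were a replicate block, other scalings, another variance model, array weights, filters, other thresholds, other choices of probe set, and leaving out arrays.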

Additional observations from a re-analysis of the deposited data

Results flagged for a closer look

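In 5 of 52 groups of 4 arrays, over the members' 26 probe sets, 1 array stood far from the other 3 by Dixon's ratio of its gap to the group's range (above Dixon's 95% critical value). Chance gives about 1 in 20. CCNE2 at 211814_s_at had stiff B at 8.33, with the other stiff arrays at 8.11 to 8.12 (ratio 0.955). CDK2 at 204252_at had soft B at 9.54, with the others at 9.62 to 9.63 (0.889). CDK2 at 211803_at, under background, had soft B at 4.99 with the others at 4.89 (ratio 1) and stiff D at 4.88 with the others at 5.1 to 5.14 (0.846). CDKN1B had stiff A at 10.71, with the others at 10.57 to 10.58 (0.929). Without soft B the CDK2 difference at 204252_at was -0.21 (adjusted p = 0.0751), and without stiff B that of CCNE2 at 211814_s_at was -0.54 (0.0637).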

How the results depend on the processing

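Of the members past or near the threshold, CDK6 224851_at was called in 19 of 19 alternatives, CCNE2 205034_at in 16 of 19 and 211814_s_at in 14 of 18, CDK6 224848_at in 13 of 19, CDK2 204252_at in 10 of 19 and 211804_s_at in 7 of 18, CCND1 208711_s_at in 7 of 18 and CCNE1 213523_at in 4 of 19, all with an unchanged direction. CDK6 207143_at, under background and at a limma adjusted p of 0.0653, was called in 1 of 17, with its direction unchanged in all. CCNE1 was called with a trended, robust variance (adjusted p = 0.0364), with probe sets above background (0.0224) or the median level (0.0299) alone, where fewer are tested, and without soft C. With a replicate block, 1452 of all genes and 1 member gene were called, CDK2 being lost at 204252_at (adjusted p = 0.081) while 211804_s_at passed (0.0235); among the probe sets higher on soft it ended the calls of CCND1 208711_s_at (0.0979) and CDK6 224848_at (0.0634), leaving 1 of 3. The count of all genes called was 3265 of 10281 with probe sets above background. It was 603 at a threshold of 0.01, 1104 with the A-B pair and 835 with the C-D pair as the stiff arrays, and 1092 to 2040 when 1 array was left out. The count of member genes was 0 at a threshold of 0.01, 1 with the A-B pair (CCND2), 0 with the C-D pair, and 0 to 3 when 1 array was left out. The count of member probe sets was 1, 2 and 1 in these 3 settings and 1 to 8 when 1 array was left out. Differences that turned sign were all small and past no threshold. Against the C-D pair these were CCND1 208712_at (0.015), CCND2 200951_s_at (-0.0275) and 231259_s_at (-0.0725), CCND3 201700_at (0.02), CDK6 231198_at (0.01) and CDKN1B (0.01). After cyclic loess they were CCND2 231259_s_at (-0.0013), CCND3 201700_at (0.0127) and CDKN1B (0.0037), and after repeated quantile normalization CCND3 201700_at (0.0061). Leaving out 1 array gave -0.02 to 0.1092 for CCND2 200951_s_at, -0.0908 to 0.0825 for 231259_s_at, -0.055 to 0.0483 for CCND3 201700_at, -0.005 to 0.1383 for CCNE1 242105_at and -0.0833 to 0.0133 for CDKN1B. No scaling moved the median of all genes beyond 0.0125 in size. The causes were not tested, beyond fewer arrays or fewer probe sets in those fits. The 11 probe sets under background limit what can be read of their transcripts.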
